A study of Mus musculus with 48 samples.

Results

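The response of mouse peritoneal macrophages to the compound AP-3-84 was compared between cells from tumour ascites and cells elicited with thioglycollate. The quantity reported is the difference of both responses on the log2 scale: AP-3-84 against vehicle in ascites cells, less AP-3-84 against vehicle in thioglycollate cells. A positive value means that RNA moved further up, or less far down, in ascites cells. The comparison takes the 12 libraries that the labels name as ascites or thioglycollate macrophages, of 48 in the series, in 4 groups of 3. The other libraries come from bone marrow-derived macrophages and enter only 1 alternative fit.

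Ascites macrophages came from the peritoneal fluid of mice 45 days after injection of ID8 cells, a mouse ovarian tumour line, and their genotype is given as B6(Cg)-Tyrc-2J/J, a C57BL/6 line with an albino allele of tyrosinase. Thioglycollate macrophages (called thio here) were washed from the peritoneum of wild-type C57BL/6 mice 4 days after injection of 1 ml of 3% thioglycollate, a sterile irritant. Both were enriched with magnetic beads against the macrophage surface protein F4/80 and then held for 4 h with 10 µM AP-3-84 or with DMSO, the vehicle. Tumour against irritant, 45 against 4 days and the coat-colour allele all go with the population, so they cannot be told apart as sources of a difference. Nothing in the labels says that the 3 libraries of a group came from separate animals, so p-values measure the spread between libraries, which may be technical. The sequencing method, QuantSeq, reads 1 short tag near the 3′ end of each RNA, and levels are given as CPM, read counts scaled to a common effective library size.

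Background for the gene groups is as follows. Unfolded or damaged protein releases the transcription factor HSF1, which raises the chaperones of the HSP70, HSP60, HSP90 and HSP110 families. Amino acid shortage and other stresses phosphorylate eIF2α, and the factor ATF4 then raises genes of amino acid uptake, one-carbon metabolism and tRNA charging. Electrophiles and oxidants free NRF2 from KEAP1, which raises glutathione and thioredoxin genes, and in macrophages these programmes run beside inflammatory, interferon and antigen presentation genes.

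Libraries held 15532373 to 19417581 counts each, and 16955 of 51789 genes passed the filter on low counts. One ascites AP-3-84 library, replicate 1, stood apart with 20388 genes detected against 21747 to 22945 in the other 11, and results that rest on it are given with and without it. All 8 core macrophage markers were detected, with summed levels of 28800 to 30700 CPM in ascites vehicle, 23900 to 28600 CPM in ascites AP-3-84, 34300 to 34800 CPM in thio vehicle and 27700 to 32800 CPM in thio AP-3-84 libraries. Lyz2 made up most of each sum, at 24600 to 26400, 19300 to 24600, 30600 to 31000 and 24400 to 29200 CPM in that order. The sums therefore followed this gene. Other members differed both ways between the vehicle groups. Fcgr1 stood at 335 to 348 CPM in ascites and 31.7 to 35.8 CPM in thio. Cd68 stood at 751 to 854 CPM in ascites and 1660 to 1720 CPM in thio. Epithelial, ID8 or mesothelial markers summed to 242 to 292 CPM in ascites vehicle and 279 to 306 CPM in ascites AP-3-84, against 5.86 to 8.08 CPM in thio vehicle and 7.23 to 7.56 CPM in thio AP-3-84. B cell markers summed to at most 7.59 CPM in any library and T cell markers to at most 4.15 CPM, with 4 of 8 and 6 of 8 of them under 1 CPM throughout. In these bulk samples fewer cells of a type and less RNA per cell cannot be told apart.

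The difference between the responses was called for 20 of 16955 genes, 0.118% of those tested (edgeR quasi-likelihood test, Benjamini-Hochberg adjusted p under 0.05, two-sided). It was positive for 13 genes (0.0767% of those tested) and negative for 7 (0.0413%), while 1295 genes (7.64%) had an unadjusted p under 0.05. On the positive side stood the chaperones Hspa1a, Hspa1l, Hsph1 and Hspd1, the stress and early response genes Gadd45b, Jun and Ier5l, and the non-coding RNA Rn7sk, all raised more in ascites. The positive side also held F13a1, Ccr2 and Rapgef6, which fell in thio and were not called in ascites. On the negative side stood Mthfd2 and Slc7a1 of one-carbon and amino acid metabolism, the metalloproteinases Mmp12 and Mmp13, and Ifrd1, Rgs1 and Vasn. Without ascites AP-3-84 replicate 1 the difference was called for 21 genes, 17 of them among the 20, and the calls for Hspa1a, Hspd1 and Rapgef6 were lost. By contrast 303 genes (1.79%) were called in the ascites response and 733 (4.32%) in the thio response, and 198 (1.17%) in both in the same direction. Of those 198, 104 were alike, meaning that the 95% interval of the difference lay inside a 1.5-fold margin, 9 had a called difference, and 85 had an interval that was wider than the margin. No gene was called in opposite directions.

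**Figure D1:**
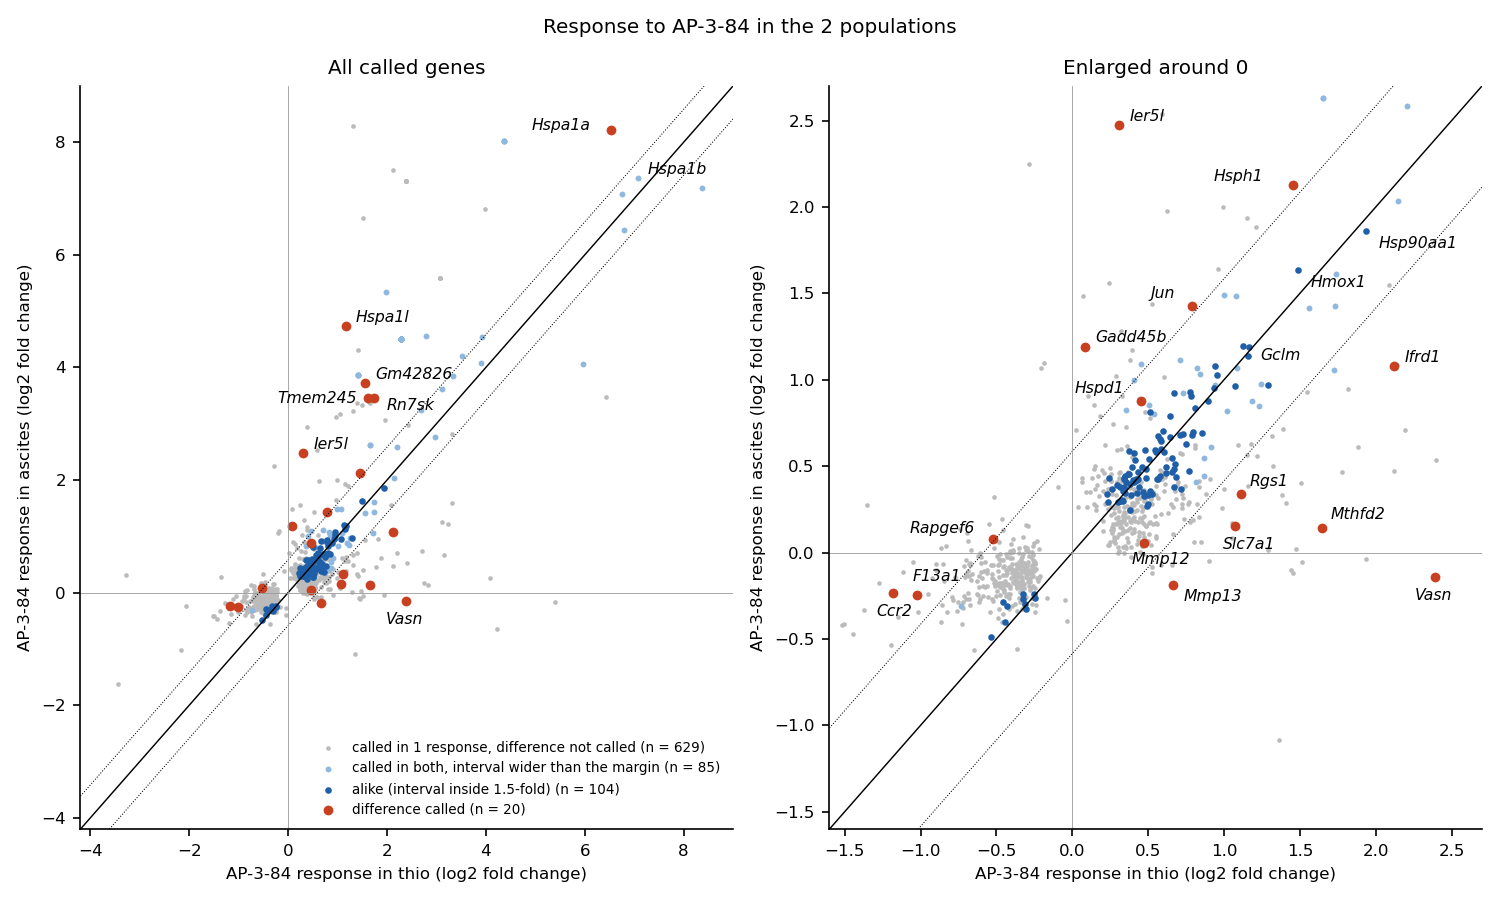
Response of each called gene in thio (horizontal axis, log2 fold change) against ascites (vertical axis), for the 838 genes called in either response or in the difference, with an enlarged centre in the right panel and 3 genes outside the axes. Of the 838 genes, 782 have the same sign in both responses, and the 20 with a called difference are the red points. Dotted lines mark the 1.5-fold margin around equal responses.

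Hspa1a, Hsph1 and Hspd1 of the heat shock list had positive calls, and so did Hspa1l, an HSP70 gene that is not in the list. Hspa1a (ENSMUSG00000091971, chromosome 17, 34969190 to 34972156) is an inducible cytosolic HSP70. Its level was 2.58, 2.61 and 2.22 CPM in the ascites vehicle libraries and 759.7, 741 and 713 CPM with AP-3-84, and 3.13, 5.47 and 3.53 CPM in thio vehicle and 413, 306 and 396 CPM with AP-3-84. The vehicle libraries were low in both populations, with 137 counts in all in ascites and 204 in thio. They did not overlap, and the ascites vehicle level lay -0.71 from the thio vehicle level on the log2 scale. Every ascites AP-3-84 library was above every thio AP-3-84 library, with a log2 difference between these groups of 0.99. The fold change was 298 in ascites and 91.9 in thio, which gave a log2 difference of 1.69 (SE 0.26, 95% interval 1.13 to 2.26, edgeR adjusted p 0.0389). The call for Hspa1a was kept without thio vehicle replicate 1 or 2 or thio AP-3-84 replicate 2 and lost without each of the other 9 libraries in turn (edgeR adjusted p from 0.0547 to 0.127 there and from 3.91e-19 to 0.962 over all 20 alternative fits). Hspa1b, the neighbouring copy, shares 64.1% of the 30-base stretches of Hspa1a's transcripts, so reads can be split between them. Its levels were 2.4, 1.92 and 1.95 CPM, 349, 364 and 324 CPM, 0.894, 1.03 and 0.597 CPM and 133, 97 and 108 CPM in the same order of groups. Hspa1b rose in both (log2 fold changes 7.37 and 7.07), and its difference of 0.30 (SE 0.26, 95% interval -0.26 to 0.87, edgeR adjusted p 0.809) was not called.

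Hspa1l (ENSMUSG00000007033, chromosome 17, 34972703 to 34979285), a further HSP70 gene beside them, stood at 0.539, 0.296 and 0.108 CPM in ascites vehicle and 9.06, 7.25 and 8.86 CPM in ascites AP-3-84 libraries. In thio its levels were 0.766, 0.547 and 1.03 CPM with vehicle and 1.23, 2.74 and 1.34 CPM with AP-3-84, with no overlap between these groups. Hspa1l responded by 4.73 (SE 0.48, adjusted p by edgeR 7.31e-06) in ascites and by 1.16 (SE 0.43, adjusted p by edgeR 0.165) in thio on the log2 scale. For Hspa1l the difference was 3.57 (SE 0.65, 95% interval 2.20 to 4.93, edgeR adjusted p 0.0389). By the rule it counts as called in ascites only, although the thio libraries also separated. Read in its own direction, transcripts of other genes share 14.9% of the stretches of Hspa1l. The gene also lies across Gm10501 on the opposite strand, which holds 71.7% of its stretches, and strand use in the counting is not given in the sources used here, so its reads are uncertain. The call for Hspa1l was kept without ascites vehicle replicate 1, ascites AP-3-84 replicate 1 or thio AP-3-84 replicate 2 and lost without each of the other 9 libraries in turn (edgeR adjusted p from 0.0547 to 0.156 there and from 7.56e-06 to 0.438 over all 20 alternative fits).

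Hsph1 (ENSMUSG00000029657, chromosome 5, 149614287 to 149636376), the HSP110 that recharges HSP70, stood at 59.5, 64.7 and 62.7 CPM in ascites vehicle, 314, 247 and 256 CPM in ascites AP-3-84, 47.2, 53.7 and 52.9 CPM in thio vehicle and 137, 135 and 149 CPM in thio AP-3-84 libraries. It rose in both without overlap, and the ascites AP-3-84 libraries were the highest of all 12. Its log2 fold changes were 2.13 and 1.45. For Hsph1 the difference was 0.68 (SE 0.12, 95% interval 0.42 to 0.93, edgeR adjusted p 0.0389). Hspd1 (ENSMUSG00000025980, chromosome 1, 55077835 to 55088243), the mitochondrial HSP60, stood at 237, 246 and 237 CPM, 461, 424 and 437 CPM, 189, 191 and 194 CPM and 259, 259 and 268 CPM in the same order. The log2 fold changes of Hspd1 were 0.87 and 0.45, and the difference of 0.42 (SE 0.076, 95% interval 0.26 to 0.58, edgeR adjusted p 0.0389) was the smallest in size among the called genes except Mmp12. The pseudogene Hspd1-ps3 shares 46.9% of the stretches of Hspd1. The call for Hsph1 was kept without ascites AP-3-84 replicate 1, 2 or 3 and lost without each of the other 9 libraries in turn (edgeR adjusted p from 0.0575 to 0.148 there and from 6.42e-06 to 1 over all 20 alternative fits). The call for Hspd1 was lost without each of the 12 libraries in turn (edgeR adjusted p from 0.0564 to 0.148 there and from 0.000897 to 1 over all 20 alternative fits). Hspe1, the HSP10 partner encoded next to Hspd1, had a difference of 0.34 (SE 0.12, edgeR adjusted p 0.483), named after its values were seen.

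Across the heat shock list, 36 genes were tested, of which 21 rose in ascites and 14 in thio, against 1.69% and 2.51% of all genes tested. Of these, 13 rose in both (1.1% of all genes tested), 6 were alike (0.613% of all genes), and 3 had a called positive difference (0.0767% of all genes). The difference was positive for 26 of 36 members, with a median of 0.12, against 49.7% positive and a median of -0.0021 over all genes tested (54.7% and 0.026 over protein-coding genes). Without ascites AP-3-84 replicate 1 it was again positive for 26 of 36, with a median of 0.078. Dnajb1, the HSP40 that hands clients to HSP70, rose by 1.12 in ascites and 0.38 in thio on the log2 scale, with an uncalled difference of 0.73 (SE 0.19, 95% interval 0.33 to 1.14, edgeR adjusted p 0.301). Hsp90aa1, the inducible HSP90, was alike, at log2 fold changes of 1.86 and 1.94 and a difference of -0.074 (SE 0.094, 95% interval -0.27 to 0.13, edgeR adjusted p 0.874). Hspa8, the constitutive HSP70, had log2 fold changes of 0.70 and 0.60 and a difference of 0.10 (SE 0.091, 95% interval -0.088 to 0.30, edgeR adjusted p 0.805). Transcripts of other genes share 51.7% of the stretches of Hsp90aa1 and 43.8% of those of Hspa8, so the reads of both are uncertain.

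Promoter sequences of RefSeq (build GRCm38.p6, from 250 bases before to 50 after the start) were matched for 17 of the 20 called genes. They were searched on both strands for the heat shock element that HSF1 trimers bind, spelled as GAA, TTC and GAA in a row, or TTC, GAA and TTC, with NN between neighbours, and 198 of 32851 windows (0.603%) held them. Among the called genes only the windows of Hsph1 and Hspd1 did, and among the alike genes only that of Tra2b, a splicing factor. These 3 windows are shown because they carry the same letters beside a larger ascites response (Hspd1, chr1:55087883-55088182, minus strand; Hsph1, chr5:149636266-149636565, minus strand) and beside an alike one (Tra2b, chr16:22265956-22266255, minus strand). Capitals mark the element, on whichever strand it matched, and a match is a description of these letters only. Only exact letters were searched, so a window without a match may still hold a less exact form. The window of Hspe1, on the plus strand, holds the same stretch as that of Hspd1, and the difference of Hspe1 was not called.
Hspd1: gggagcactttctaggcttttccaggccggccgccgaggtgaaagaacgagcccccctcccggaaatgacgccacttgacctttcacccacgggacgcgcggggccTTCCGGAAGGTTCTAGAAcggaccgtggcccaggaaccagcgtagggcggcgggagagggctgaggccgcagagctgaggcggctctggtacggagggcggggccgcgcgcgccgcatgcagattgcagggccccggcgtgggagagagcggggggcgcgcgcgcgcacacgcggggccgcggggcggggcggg
Hsph1: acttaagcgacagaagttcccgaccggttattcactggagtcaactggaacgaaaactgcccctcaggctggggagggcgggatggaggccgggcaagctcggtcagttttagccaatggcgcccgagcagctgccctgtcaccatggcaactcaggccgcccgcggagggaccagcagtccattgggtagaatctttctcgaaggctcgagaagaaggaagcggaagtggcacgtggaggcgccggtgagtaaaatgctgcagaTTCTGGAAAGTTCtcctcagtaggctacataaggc
Tra2b: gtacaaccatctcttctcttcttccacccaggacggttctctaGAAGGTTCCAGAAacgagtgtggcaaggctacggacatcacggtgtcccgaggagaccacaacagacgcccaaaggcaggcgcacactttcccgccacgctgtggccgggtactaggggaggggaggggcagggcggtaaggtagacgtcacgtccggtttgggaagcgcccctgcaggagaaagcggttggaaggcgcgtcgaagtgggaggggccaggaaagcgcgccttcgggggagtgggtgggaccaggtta

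Tra2b stood at 78.2, 83.1 and 80.3 CPM in ascites vehicle, 119, 136 and 126 CPM in ascites AP-3-84, 78.6, 73.7 and 77 CPM in thio vehicle and 108, 113 and 122 CPM in thio AP-3-84 libraries. Its groups did not overlap in either population, and its difference was 0.078 (SE 0.10, 95% interval -0.13 to 0.29, edgeR adjusted p 0.874). Tra2b was named after its values were seen.

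Positive calls were also made for Gadd45b of the MAP kinase phosphatase and GADD45 list, for Jun of the early response list, and for Ier5l, which is in neither list. Gadd45b (ENSMUSG00000015312, chromosome 10, 80930073 to 80932204) binds and regulates stress kinases upstream of p38 and JNK. It stood at 11.2, 11.6 and 10.5 CPM in ascites vehicle and 23.1, 26.4 and 26.7 CPM in ascites AP-3-84 libraries, with no overlap. In thio it stood at 61.9, 62.6 and 59.7 CPM with vehicle and 61.9, 66.8 and 66.7 CPM with AP-3-84, where the groups overlapped, and each thio library was above each ascites library. Gadd45b responded by 1.19 (SE 0.089, adjusted p by edgeR 4.75e-07) in ascites and by 0.086 (SE 0.082, adjusted p by edgeR 0.692) in thio on the log2 scale. For Gadd45b the difference was 1.11 (SE 0.12, 95% interval 0.85 to 1.36, edgeR adjusted p 0.000628). The ascites vehicle level lay -2.46 from the thio vehicle level on the log2 scale, and Gadd45b rose in the population that started lower. The call for Gadd45b held without each of the 12 libraries in turn (edgeR adjusted p from 5.24e-05 to 0.00495) and was lost in 1 of the 8 other fits (up to 0.185 over all 20).

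Jun (ENSMUSG00000052684, chromosome 4, 95049034 to 95052222), a subunit of the transcription factor AP-1, stood at 102, 115 and 104 CPM in ascites vehicle, 323, 264 and 274 CPM in ascites AP-3-84, 289, 291 and 319 CPM in thio vehicle and 480.0, 511 and 562 CPM in thio AP-3-84 libraries. It rose in both populations without overlap, and again from a lower start in ascites. Its log2 fold changes were 1.42 and 0.79. For Jun the difference was 0.63 (SE 0.12, 95% interval 0.39 to 0.88, edgeR adjusted p 0.0389). The call for Jun was kept without ascites AP-3-84 replicate 1, 2 or 3 or thio AP-3-84 replicate 3 and lost without each of the other 8 libraries in turn (edgeR adjusted p from 0.0908 to 0.156 there and from 7.03e-07 to 0.891 over all 20 alternative fits). Ier5l (ENSMUSG00000089762, chromosome 2, 30471537 to 30474219), a relative of the early response gene Ier5, stood at 1.38, 1.82 and 2.71 CPM, 10.3, 12.5 and 10.3 CPM, 2.49, 2.85 and 2.88 CPM and 3.16, 2.47 and 4.55 CPM in the same order. The ascites groups were far apart, and the thio groups overlapped. Ier5l responded by 2.47 (SE 0.27, adjusted p by edgeR 2.22e-05) in ascites and by 0.31 (SE 0.28, adjusted p by edgeR 0.662) in thio on the log2 scale. For Ier5l the difference was 2.17 (SE 0.38, 95% interval 1.35 to 2.98, edgeR adjusted p 0.0389). The call for Ier5l was kept without ascites vehicle replicate 3, ascites AP-3-84 replicate 1 or 3 or thio AP-3-84 replicate 3 and lost without each of the other 8 libraries in turn (edgeR adjusted p from 0.0843 to 0.14 there and from 4.45e-05 to 1 over all 20 alternative fits).

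Of 25 early response and AP-1 genes tested, 7 rose in ascites, 6 in thio and 5 in both, against 1.69%, 2.51% and 1.1% of all genes, 3 were alike (0.613% of all genes), and Jun alone had a called difference (0.118% of all genes). The list was even in direction, with 13 of 25 differences positive, and with 10 of 25 positive without ascites AP-3-84 replicate 1. Atf3, a stress-induced relative of Jun, rose in both, by 0.81 and 0.51 on the log2 scale, with a difference of 0.30 (SE 0.10, 95% interval 0.087 to 0.51, edgeR adjusted p 0.465). Among 14 genes of MAP kinase phosphatases and the GADD45 family, which act around the stress kinases, 4 rose in ascites and 6 in thio, against 1.69% and 2.51% of all genes, and only Gadd45b had a called difference (0.118% of all genes).

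The other genes that rose further in ascites were the non-coding Rn7sk, the unconfirmed locus Gm42826 and the protein-coding Tmem245, which are in no list. Rn7sk (ENSMUSG00000065037, chromosome 9, 78175303 to 78175633), the 7SK RNA that holds the elongation kinase P-TEFb inactive, stood at 41.6, 45.7 and 50.8 CPM in ascites vehicle and 608, 444 and 476 CPM in ascites AP-3-84 libraries, and at 56.8, 57.6 and 46.8 CPM in thio vehicle and 158, 169 and 208 CPM in thio AP-3-84 libraries. The vehicle groups overlapped between populations, and all 3 ascites AP-3-84 libraries were above all 3 thio AP-3-84 libraries. The log2 fold changes were 3.47 and 1.73. For Rn7sk the difference was 1.73 (SE 0.20, 95% interval 1.30 to 2.17, edgeR adjusted p 0.00603). 7SK-like copies elsewhere in the genome share 73.5% of its stretches, and the RNA has no natural poly(A) tail, so what its reads count in a poly(A)-primed assay is uncertain. The call for Rn7sk held without each of the 12 libraries in turn (edgeR adjusted p from 0.000252 to 0.0414) and was lost in 3 of the 8 other fits (up to 1 over all 20).

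Gm42826 (ENSMUSG00000106001, chromosome 3, 125216915 to 125219553), a locus whose type is still unconfirmed in the annotation (TEC), stood at 2.28, 2.76 and 2.71 CPM in ascites vehicle, 38.1, 31.1 and 33.5 CPM in ascites AP-3-84, 2.49, 2.92 and 2.22 CPM in thio vehicle and 5.36, 7.36 and 9.64 CPM in thio AP-3-84 libraries. It rose in both, by 3.72 and 1.55 on the log2 scale, with a difference of 2.17 (SE 0.28, 95% interval 1.57 to 2.77, edgeR adjusted p 0.00261). Tmem245 (ENSMUSG00000055296, chromosome 4, 56866923 to 56947437), a membrane protein of unclear function, stood at 82.4, 79.1 and 71.8 CPM, 1086, 822 and 643 CPM, 95.5, 106 and 97.8 CPM and 286, 283 and 354 CPM in the same order. The vehicle libraries of the populations overlapped for Gm42826 and lay close together for Tmem245, and the ascites AP-3-84 libraries were the highest for both, with the 3 of Tmem245 far apart from each other. Tmem245 had log2 fold changes of 3.45 and 1.63 and a difference of 1.82 (SE 0.24, 95% interval 1.29 to 2.36, edgeR adjusted p 0.0365). Tmem245 overlaps Mir32 and Gm25053 on its own strand and Gm22300 on the other. Transcripts of other genes share 5.5% of its stretches and 14.6% of those of Gm42826, so the reads of both are uncertain. The call for Gm42826 held without each of the 12 libraries in turn (edgeR adjusted p from 0.00135 to 0.0169) and was lost in 2 of the 8 other fits (up to 1 over all 20). The call for Tmem245 was kept without ascites AP-3-84 replicate 1 or 3 or thio AP-3-84 replicate 3 and lost without each of the other 9 libraries in turn (edgeR adjusted p from 0.0893 to 0.118 there and from 7.61e-14 to 0.156 over all 20 alternative fits).

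**Figure D2:**
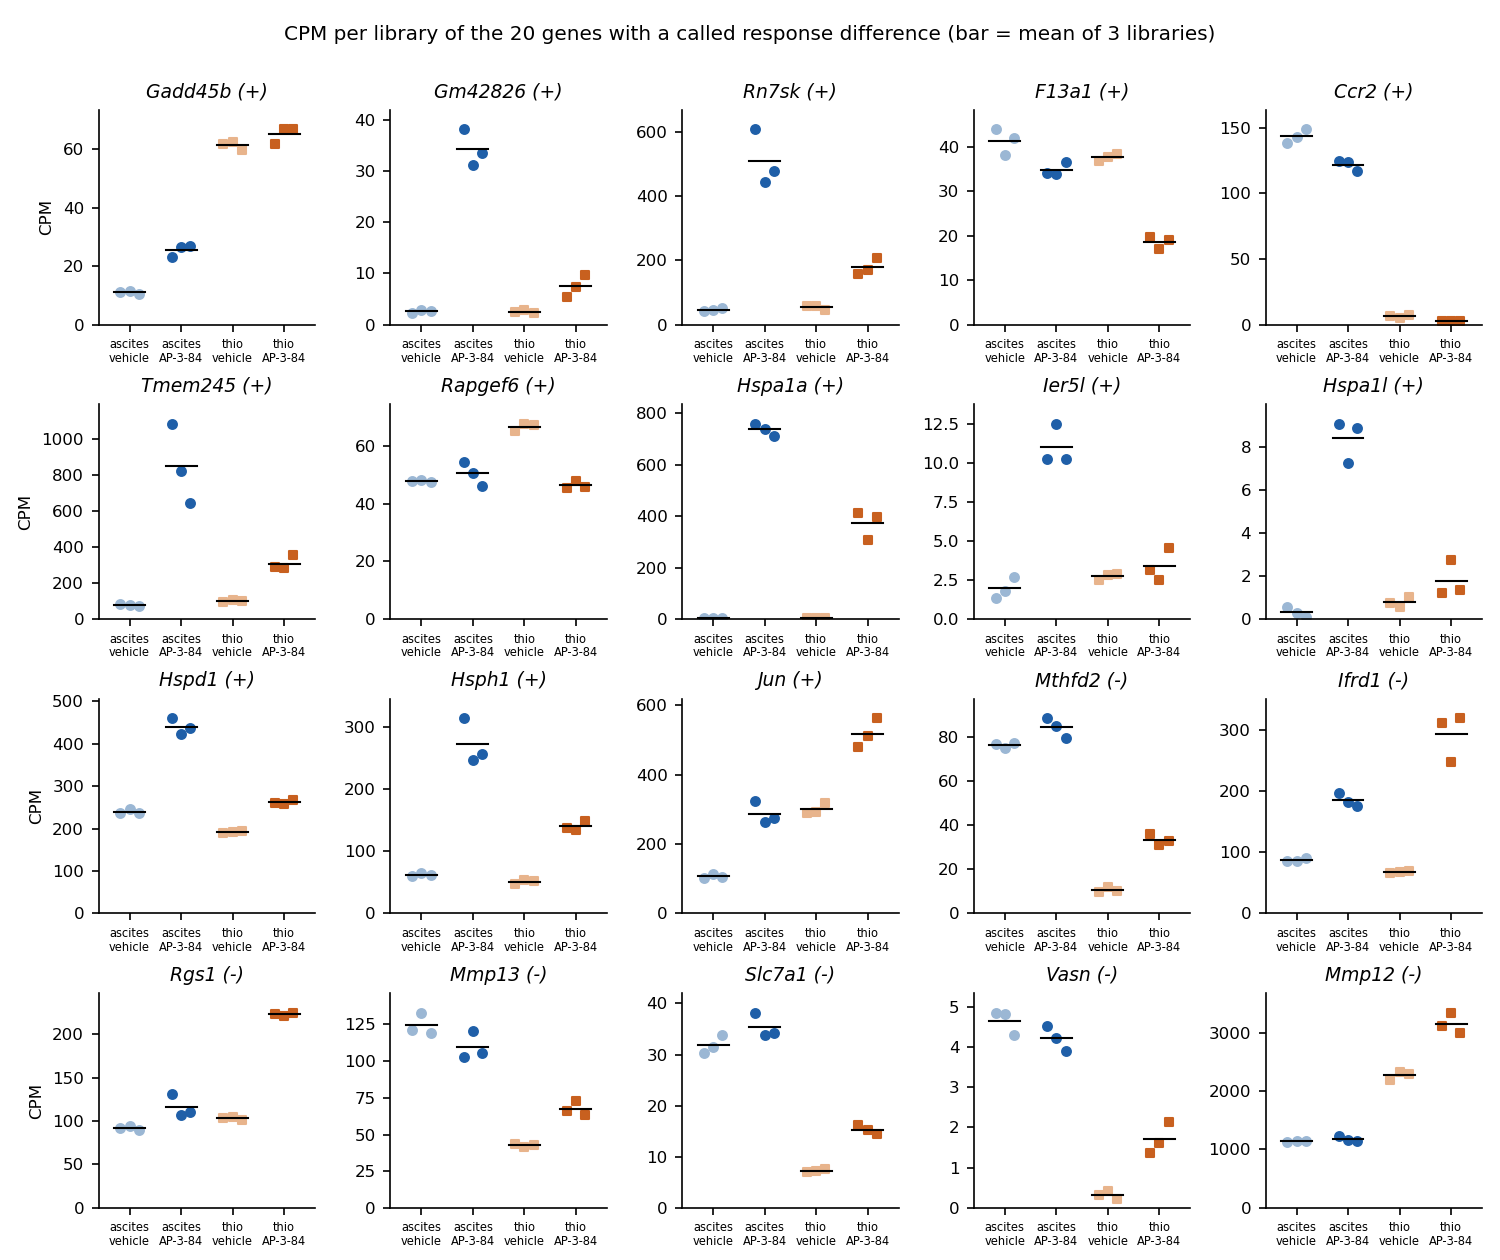
Level of the 20 genes with a called difference in each of the 12 libraries (vertical axes, CPM, linear from 0), by group on the horizontal axis, with 1 point per library and a bar at the group mean. Gadd45b was called in ascites and not in thio and Mthfd2 in thio and not in ascites, each in the population with the lower vehicle level.

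Genes of amino acid and one-carbon metabolism gave 2 negative calls, Mthfd2 and Slc7a1, both called in thio only. Mthfd2 (ENSMUSG00000005667, chromosome 6, 83305691 to 83325908), the mitochondrial folate enzyme that feeds one-carbon units to nucleotide synthesis, had the lowest p of all genes. It stood at 76.9, 74.8 and 77.2 CPM in ascites vehicle and 88.4, 84.8 and 79.6 CPM in ascites AP-3-84 libraries. In thio it stood at 9.51, 12.1 and 10.3 CPM with vehicle and 35.9, 31.1 and 32.9 CPM with AP-3-84. The groups did not overlap in either population, the step in ascites was small, and every thio library stayed below every ascites library. Mthfd2 responded by 0.14 (SE 0.087, adjusted p by edgeR 0.621) in ascites and by 1.65 (SE 0.096, adjusted p by edgeR 1.78e-08) in thio on the log2 scale. For Mthfd2 the difference was -1.50 (SE 0.13, 95% interval -1.78 to -1.23, edgeR adjusted p 4.22e-05). Without compound the ascites level was above the thio level by 2.84 on the log2 scale. The call for Mthfd2 held without each of the 12 libraries in turn (edgeR adjusted p from 1.36e-05 to 0.000571) and was lost in 1 of the 8 other fits (up to 0.0902 over all 20).

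Slc7a1 (ENSMUSG00000041313, chromosome 5, 148327410 to 148399904), which imports arginine and lysine, stood at 30.3, 31.4 and 33.8 CPM in ascites vehicle, 38.2, 33.8 and 34.2 CPM in ascites AP-3-84, 7.02, 7.17 and 7.59 CPM in thio vehicle and 16.2, 15.2 and 14.5 CPM in thio AP-3-84 libraries. As for Mthfd2, the thio libraries started and stayed below the ascites libraries. Slc7a1 responded by 0.15 (SE 0.096, adjusted p by edgeR 0.639) in ascites and by 1.07 (SE 0.11, adjusted p by edgeR 1.22e-05) in thio on the log2 scale. For Slc7a1 the difference was -0.92 (SE 0.14, 95% interval -1.23 to -0.62, edgeR adjusted p 0.0168). The call for Slc7a1 was lost without ascites vehicle replicate 2 or 3, ascites AP-3-84 replicate 2, thio vehicle replicate 1 or 2 or thio AP-3-84 replicate 1 (edgeR adjusted p from 0.0545 to 0.0668 there and from 0.000467 to 1 over all 20 alternative fits). In the integrated stress response list 15 of 27 genes rose in thio and 6 in ascites, all 6 in both, against 2.51%, 1.69% and 1.1% of all genes tested, and 3 were alike (0.613% of all genes). The difference was positive for 9 of 27 members (33.3%, against 49.7% of all genes and 54.7% of protein-coding genes) with a median of -0.23, and for 8 of 27 without ascites AP-3-84 replicate 1 with a median of -0.31. Mthfd2 and Slc7a1 were its called members, against 0.0413% of all genes with a called negative difference.

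Other members of this list had large differences that were not called. Asns, asparagine synthetase, stood at 7.49, 8.33 and 5.64 CPM in ascites vehicle, 13.5, 11.8 and 10.6 CPM in ascites AP-3-84, 0.319, 0.85 and 1.3 CPM in thio vehicle and 6.52, 4.48 and 5.69 CPM in thio AP-3-84 libraries. The thio vehicle libraries were the lowest, and the groups were apart in both populations. Its difference was -1.98 (SE 0.43, 95% interval -2.88 to -1.08, edgeR adjusted p 0.101). Slc6a9, a glycine transporter, had a difference of -2.48 (SE 0.52, 95% interval -3.58 to -1.37, edgeR adjusted p 0.0752), and Trib3, a feedback inhibitor of ATF4, one of -1.05 (SE 0.32, 95% interval -1.72 to -0.38, edgeR adjusted p 0.434). Slc7a11, the cystine importer that ATF4 and NRF2 share, had log2 fold changes of 1.06 and 1.72 and a difference of -0.67 (SE 0.17, 95% interval -1.03 to -0.30, edgeR adjusted p 0.299). Chac1, a glutathione-degrading enzyme, had a difference of -1.92 (SE 0.84, 95% interval -3.70 to -0.13, edgeR adjusted p 0.599), Ddit3, the factor CHOP, one of -0.082 (SE 0.19, 95% interval -0.49 to 0.32, edgeR adjusted p 0.936) and Gdf15, a stress cytokine, one of 0.14 (SE 0.19, 95% interval -0.26 to 0.54, edgeR adjusted p 0.884). Asns, Slc6a9, Trib3 and Slc7a11 were named after their values were seen.

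The windows of these genes were searched for the C/EBP-ATF element TGATGNAA, through which ATF4 acts, on both strands, and 3.97% of all windows held it. It was in the windows of Asns, Atf3, Chac1, Ptgr1, Slc7a11 and Trib3, and in none of the called genes, Mthfd2 and Slc7a1 included. Here too, only exact letters inside the windows were searched. The Asns window (chr6:7693160-7693459, minus strand) is shown because it holds the letters beside a difference that was not called, and the Gclm window (chr3:122245307-122245606, plus strand) as that of an alike NRF2 gene. Capitals mark TGATGNAA in Asns and the antioxidant element letters TGACNNNGC, which NRF2 binds, in Gclm, on either strand, and 12.4% of all windows held the latter.
Asns: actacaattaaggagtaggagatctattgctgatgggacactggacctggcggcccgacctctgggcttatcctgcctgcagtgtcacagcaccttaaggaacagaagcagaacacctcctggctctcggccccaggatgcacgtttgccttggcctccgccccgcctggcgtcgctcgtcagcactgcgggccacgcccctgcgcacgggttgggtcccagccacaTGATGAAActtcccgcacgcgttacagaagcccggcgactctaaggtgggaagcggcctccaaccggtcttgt
Gclm: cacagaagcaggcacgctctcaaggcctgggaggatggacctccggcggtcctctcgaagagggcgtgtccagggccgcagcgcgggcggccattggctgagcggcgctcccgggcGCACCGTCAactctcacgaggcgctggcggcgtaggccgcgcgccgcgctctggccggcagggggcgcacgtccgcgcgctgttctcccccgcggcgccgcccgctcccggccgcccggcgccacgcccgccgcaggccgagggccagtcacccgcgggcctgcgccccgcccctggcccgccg

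The other 5 negative calls were genes of varied function. Ifrd1 (ENSMUSG00000001627, chromosome 12, 40201567 to 40248504), a transcriptional co-regulator induced by stress, stood at 86.5, 86.6 and 90.6 CPM in ascites vehicle, 198, 183 and 176 CPM in ascites AP-3-84, 66.1, 68 and 68.8 CPM in thio vehicle and 312, 249 and 320.3 CPM in thio AP-3-84 libraries. It rose in both, with no overlap, and from a lower start to a higher level in thio. The log2 fold changes were 1.08 and 2.12. For Ifrd1 the difference was -1.04 (SE 0.12, 95% interval -1.29 to -0.79, edgeR adjusted p 0.000628). Rgs1 (ENSMUSG00000026358, chromosome 1, 144242296 to 144249242), which shortens signalling by chemokine receptors, stood at 91.4, 94.3 and 89.3 CPM, 131, 107 and 109.9 CPM, 103, 104 and 101 CPM and 223, 221 and 225 CPM in the same order. Rgs1 also rose in both, from similar vehicle levels. Its log2 fold changes were 0.34 and 1.11. For Rgs1 the difference was -0.78 (SE 0.10, 95% interval -0.99 to -0.56, edgeR adjusted p 0.00261). The call for Ifrd1 held without each of the 12 libraries in turn (edgeR adjusted p from 5.19e-05 to 0.0053) and was lost in 1 of the 8 other fits (up to 1 over all 20). The call for Rgs1 held without each of the 12 libraries in turn (edgeR adjusted p from 4.26e-05 to 0.019) and was lost in 2 of the 8 other fits (up to 1 over all 20).

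Both called metalloproteinases rose in thio and were not called in ascites. Mmp13 (ENSMUSG00000050578, chromosome 9, 7272514 to 7283331), a collagenase, stood at 121, 133 and 119 CPM in ascites vehicle, 103, 120.4 and 105 CPM in ascites AP-3-84, 43.7, 41.4 and 42.5 CPM in thio vehicle and 66.4, 72.8 and 63.2 CPM in thio AP-3-84 libraries. The thio groups were apart, the ascites groups overlapped, and ascites stayed above thio throughout. Mmp13 responded by -0.19 (SE 0.078, adjusted p by edgeR 0.388) in ascites and by 0.67 (SE 0.080, adjusted p by edgeR 8.86e-05) in thio on the log2 scale. For Mmp13 the difference was -0.85 (SE 0.11, 95% interval -1.09 to -0.61, edgeR adjusted p 0.00261). Mmp12 (ENSMUSG00000049723, chromosome 9, 7344381 to 7369499), the macrophage elastase, stood at 1131, 1144 and 1139 CPM, 1239, 1165 and 1138 CPM, 2192, 2333 and 2299 CPM and 3122, 3344 and 2993 CPM in the same order. Thio libraries were above ascites libraries throughout, the thio groups were apart and the ascites groups overlapped. Mmp12 responded by 0.053 (SE 0.055, adjusted p by edgeR 0.8) in ascites and by 0.47 (SE 0.055, adjusted p by edgeR 6.06e-05) in thio on the log2 scale. For Mmp12 the difference was -0.42 (SE 0.077, 95% interval -0.58 to -0.25, edgeR adjusted p 0.0463). Vasn (ENSMUSG00000039646, chromosome 16, 4639941 to 4650802), a membrane protein that binds TGF-β, stood at 4.85, 4.83 and 4.29 CPM, 4.53, 4.23 and 3.89 CPM, 0.319, 0.425 and 0.217 CPM and 1.36, 1.61 and 2.14 CPM in that order. Its thio libraries were all below its ascites libraries, and its ascites groups overlapped. Its thio vehicle libraries held 16 counts in all, and its difference was -2.53 (SE 0.47, 95% interval -3.52 to -1.55, edgeR adjusted p 0.0389). Vasn overlaps Coro7 and Dnaja3, so its reads are uncertain. Fibroblast markers, whose cells also make Mmp13 and Vasn, had a negative difference for 6 of 6 genes tested, none called, and summed to 39.1 to 57 CPM in ascites vehicle, 40.2 to 50 CPM in ascites AP-3-84, 19 to 30.2 CPM in thio vehicle and 30.1 to 44.5 CPM in thio AP-3-84. Their part in these results was not tested. The call for Mmp13 held without each of the 12 libraries in turn (edgeR adjusted p from 0.00245 to 0.019) and was lost in 1 of the 8 other fits (up to 1 over all 20). The call for Mmp12 was kept without ascites AP-3-84 replicate 1 or thio AP-3-84 replicate 3 and lost without each of the other 10 libraries in turn (edgeR adjusted p from 0.0911 to 0.206 there and from 0.00031 to 1 over all 20 alternative fits). The call for Vasn was kept without ascites AP-3-84 replicate 1 and lost without each of the other 11 libraries in turn (edgeR adjusted p from 0.0551 to 0.148 there and from 0.00214 to 1 over all 20 alternative fits).

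The remaining 3 positive calls, F13a1, Ccr2 and Rapgef6, fell in thio and were not called in ascites. F13a1 (ENSMUSG00000039109, chromosome 13, 36867178 to 37050244), the factor XIII subunit made by tissue macrophages, stood at 43.9, 38.1 and 42 CPM in ascites vehicle, 34, 33.9 and 36.6 CPM in ascites AP-3-84, 36.7, 37.8 and 38.4 CPM in thio vehicle and 19.6, 16.9 and 19 CPM in thio AP-3-84 libraries. Its vehicle levels overlapped between populations, and the thio AP-3-84 libraries were the lowest of all. F13a1 responded by -0.25 (SE 0.090, adjusted p by edgeR 0.269) in ascites and by -1.02 (SE 0.092, adjusted p by edgeR 4.3e-06) in thio on the log2 scale. For F13a1 the difference was 0.78 (SE 0.13, 95% interval 0.50 to 1.05, edgeR adjusted p 0.0298). Ccr2 (ENSMUSG00000049103, chromosome 9, 124101950 to 124113557), the monocyte receptor for Ccl2, stood at 139, 143 and 149 CPM, 124, 124 and 117 CPM, 6.7, 5.22 and 7.54 CPM and 2.97, 2.61 and 3.01 CPM in the same order. Every ascites library was far above every thio library, and the groups were apart within both populations. Ccr2 responded by -0.24 (SE 0.088, adjusted p by edgeR 0.296) in ascites and by -1.18 (SE 0.13, adjusted p by edgeR 3.73e-05) in thio on the log2 scale. For Ccr2 the difference was 0.95 (SE 0.16, 95% interval 0.61 to 1.28, edgeR adjusted p 0.0302). Rapgef6 (ENSMUSG00000037533, chromosome 11, 54522847 to 54699285), which activates the GTPase Rap, stood at 47.7, 48.2 and 47.4 CPM, 54.4, 50.7 and 46.3 CPM, 65.1, 67.7 and 67.3 CPM and 45.4, 47.8 and 45.9 CPM. The ascites groups overlapped, and with AP-3-84 the thio libraries came down to about the ascites level. Rapgef6 responded by 0.080 (SE 0.076, adjusted p by edgeR 0.779) in ascites and by -0.52 (SE 0.076, adjusted p by edgeR 0.000442) in thio on the log2 scale. For Rapgef6 the difference was 0.60 (SE 0.11, 95% interval 0.38 to 0.83, edgeR adjusted p 0.0389). The call for F13a1 was kept without ascites vehicle replicate 1, ascites AP-3-84 replicate 1 or 3 or thio AP-3-84 replicate 1 or 3 and lost without each of the other 7 libraries in turn (edgeR adjusted p from 0.0545 to 0.118 there and from 5.18e-05 to 1 over all 20 alternative fits). The call for Ccr2 was kept without ascites AP-3-84 replicate 1 or 3 or thio vehicle replicate 2 and lost without each of the other 9 libraries in turn (edgeR adjusted p from 0.0566 to 0.107 there and from 5.34e-06 to 1 over all 20 alternative fits). The call for Rapgef6 was kept without ascites AP-3-84 replicate 3 and lost without each of the other 11 libraries in turn (edgeR adjusted p from 0.0763 to 0.14 there and from 0.00207 to 1 over all 20 alternative fits).

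Antigen presentation, sterol and monocyte genes leaned to the positive side. All 10 MHC class II genes tested had a positive difference, with a median of 0.62 (0.43 without ascites AP-3-84 replicate 1), and 3 of them fell in thio and none in ascites, against 1.82% and 0.1% of all genes tested. None of the 10 differences was called by edgeR, and 5 had an unadjusted p under 0.05, against 7.64% of all genes tested. H2-Ab1, a class II chain named after its values were seen, stood at 423, 428 and 489 CPM in ascites vehicle, 533, 426 and 439 CPM in ascites AP-3-84, 56.4, 57.3 and 50.4 CPM in thio vehicle and 37.1, 38.4 and 42 CPM in thio AP-3-84 libraries, with a difference of 0.54 (SE 0.13, 95% interval 0.28 to 0.81, edgeR adjusted p 0.16). Of 28 genes of cholesterol and fatty acid synthesis, 24 had a positive difference (24 also without that library), with a median of 0.22, 3 fell in thio, and none was called in the difference, with 7 at an unadjusted p under 0.05 (7.64% of all genes). All 7 monocyte-derived peritoneal macrophage markers tested had a positive difference, with a median of 0.55, and 3 fell in thio. Their summed level was 624 to 641 CPM in thio vehicle and 517 to 546 CPM in thio AP-3-84 libraries, against 908 to 958 and 834 to 877 CPM in ascites. Resident peritoneal markers summed to 631 to 758 CPM in thio vehicle and 455 to 607 CPM in thio AP-3-84, and to 202 to 214 and 190 to 218 CPM in ascites. Fabp4, a fatty acid carrier, alone gave 508 to 638 CPM of the former and 319 to 478 CPM of the latter thio sum, and 42.8 to 53.2 and 29.1 to 52.3 CPM in ascites, while Cxcl13, a B cell chemokine, stood at 35.6 to 42.2 CPM in ascites vehicle and 1.25 to 2.87 CPM in thio vehicle. The resident sum and its change in thio therefore followed 1 gene. Ccr2 is itself 1 of the monocyte-derived markers and their only called difference, and the part of the other markers in the results for Ccr2, F13a1 and the class II genes was not tested.

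Of the 104 genes that responded alike, 94 rose and 10 fell. They were 0.613% of all genes tested, and 56 of their differences were positive and 48 negative. The NRF2 list gave 14 of them: 20 of its 32 genes rose in ascites, 20 in thio and 18 in both, against 1.69%, 2.51% and 1.1% of all genes. None of the 32 differences was called by edgeR, with 5 at an unadjusted p under 0.05 (7.64% of all genes), and the median difference was 0.028, or -0.0048 when scaled by total counts. Gclm, the regulatory subunit of the first glutathione enzyme, stood at 142, 142 and 139.9 CPM in ascites vehicle, 333, 299 and 299.7 CPM in ascites AP-3-84, 218, 212 and 211 CPM in thio vehicle and 459, 472 and 500.4 CPM in thio AP-3-84 libraries. Its log2 fold changes were 1.14 and 1.16, and the difference of -0.023 (SE 0.083, 95% interval -0.20 to 0.15, edgeR adjusted p 0.966) lay well inside the margin. AP-3-84 raised it without overlap in both, and thio vehicle was above ascites vehicle. Hmox1, heme oxygenase, stood at 29.2, 32.3 and 33.9 CPM, 124, 80.5 and 92 CPM, 49.6, 47.9 and 42.5 CPM and 133, 123 and 136 CPM in the same order. Its fold change was 3.1 in ascites and 2.8 in thio, with a difference of 0.15 (SE 0.18, 95% interval -0.23 to 0.53, edgeR adjusted p 0.867).

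Ednrb, the endothelin B receptor, had log2 fold changes of 1.19 and 1.13 in ascites and thio and a difference of 0.069 (SE 0.15, 95% interval -0.25 to 0.39, edgeR adjusted p 0.933). Ptgr1, which reduces reactive lipids, had log2 fold changes of 1.19 and 1.17 and a difference of 0.025 (SE 0.15, 95% interval -0.29 to 0.34, edgeR adjusted p 0.981). For Srxn1 and Txnrd1, NRF2 genes of the thioredoxin system, the differences were -0.32 (SE 0.096, 95% interval -0.52 to -0.12, edgeR adjusted p 0.434) and 0.026 (SE 0.11, 95% interval -0.20 to 0.26, edgeR adjusted p 0.973). Prdx1, a peroxiredoxin named after its values were seen, counted as alike by the margin although its interval left out 0, at -0.35 (SE 0.072, 95% interval -0.50 to -0.20, edgeR adjusted p 0.0831). Alike is therefore a statement on size, not on equality.

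Among the 11 genes that fell in both (0.0649% of those tested) 10 were alike. Of the alike genes with an average log2 CPM of at least 3, the 5 with the largest mean falls are given. Fabp5, a fatty acid carrier, had log2 fold changes of -0.28 and -0.46 in ascites and thio and a difference of 0.17 (SE 0.082, 95% interval 0.00013 to 0.35, edgeR adjusted p 0.653). Ms4a6c, a membrane protein of myeloid cells, had log2 fold changes of -0.31 and -0.43 and a difference of 0.12 (SE 0.087, 95% interval -0.063 to 0.30, edgeR adjusted p 0.783). Hpgds, which makes the D-type prostaglandin, had log2 fold changes of -0.40 and -0.44 and a difference of 0.040 (SE 0.11, 95% interval -0.18 to 0.26, edgeR adjusted p 0.949). Slfn4, an interferon-induced schlafen, stood at 309, 338 and 297 CPM in ascites vehicle, 219.8, 245 and 207 CPM in ascites AP-3-84, 7.02, 5.83 and 5.59 CPM in thio vehicle and 3.94, 4.75 and 4.02 CPM in thio AP-3-84 libraries, with a difference of 0.043 (SE 0.15, 95% interval -0.27 to 0.36, edgeR adjusted p 0.962). Slc36a1, a lysosomal amino acid transporter, had log2 fold changes of -0.33 and -0.30 and a difference of -0.022 (SE 0.094, 95% interval -0.22 to 0.18, edgeR adjusted p 0.974). Slfn4 thus fell by a like fold in both, although every ascites library was far above every thio library.

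**Figure D3:**
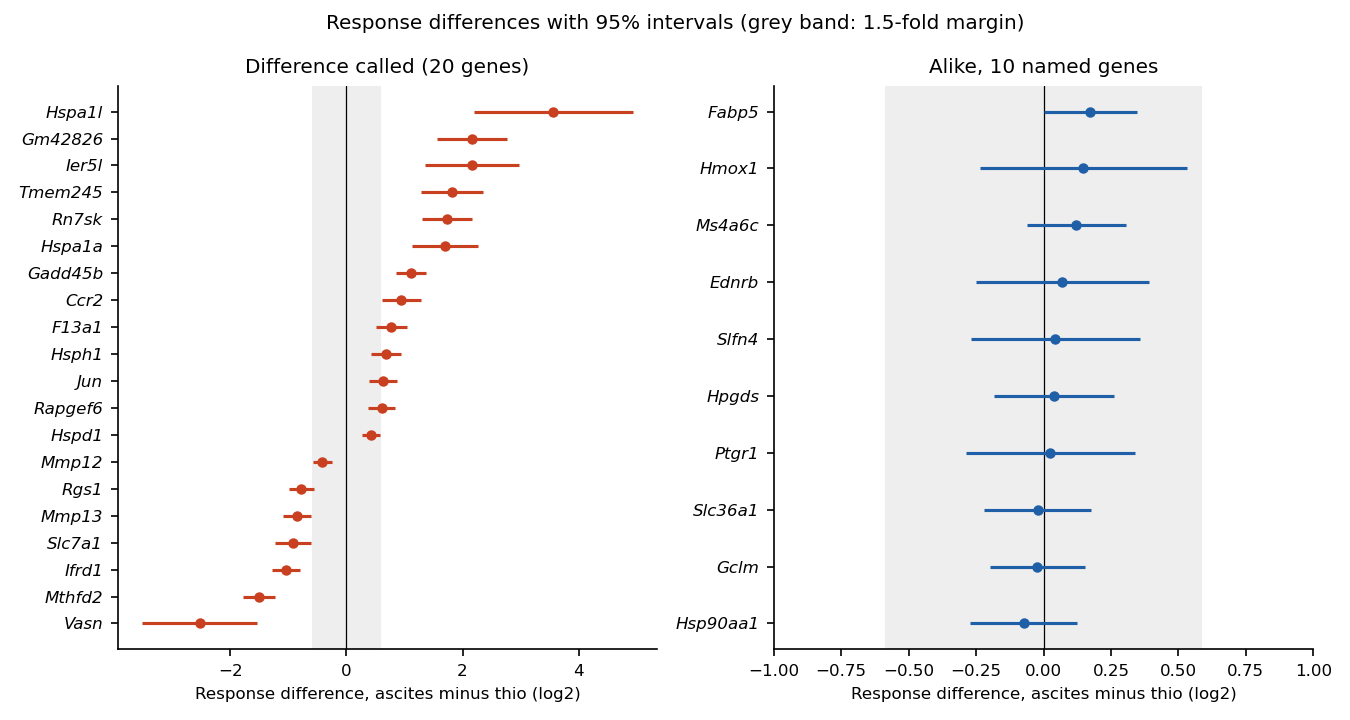
Difference of the responses, ascites minus thio (horizontal axis, log2), with its 95% interval from the edgeR fit, for the 20 called genes (left) and 10 alike genes (right), with the 1.5-fold margin as a grey band. Intervals of the alike genes lie inside the band, and those of the low-count genes Hspa1l and Vasn are the widest among the called genes.

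A call in a single population did not by itself mark a difference between the populations. Of the genes called in ascites alone, 3 had a called difference (Gadd45b, Ier5l and Hspa1l) and 102 did not, of which 38 had an interval inside the margin, near the 35.1% of all genes tested. Of those called in thio alone, 8 had a called difference (Mthfd2, Mmp13, Slc7a1, F13a1, Ccr2, Rapgef6, Vasn and Mmp12) and 527 did not, of which 287 did. Across all 16955 genes the responses had r = 0.23 and rho = 0.095, and across the 9010 with an average log2 CPM of at least 3, r = 0.50 and rho = 0.32, as a description over genes measured in the same libraries. The sign was the same in both responses for 56.2% of all genes, for 62.7% of those 9010, and for 782 of the 838 genes (93.3%) that were selected by being called in a test.

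Other lists gave few or no called differences, and their counts stand beside 1.69% of all genes raised and 0.1% lowered in ascites, 2.51% raised and 1.82% lowered in thio, 49.7% with a positive difference and 35.1% with an interval inside the margin. Of protein-coding genes alone, 54.7% had a positive difference. Proteasome subunits, which degrade ubiquitin-tagged protein, had 3 of 34 genes raised in ascites and 10 in thio, and 32 of the 34 intervals lay inside the margin. Of 42 interferon-stimulated genes 1 fell in ascites, and 2 rose and 6 fell in thio, with 25 differences positive and 17 negative (21 positive when scaled by total counts). The members pointed both ways, as with Irf7, the interferon regulator, at 0.66 (SE 0.15, 95% interval 0.35 to 0.97, edgeR adjusted p 0.144), and Rsad2, viperin, at -0.61 (SE 0.13, 95% interval -0.87 to -0.34, edgeR adjusted p 0.0831), both named after their values were seen. Among 30 NF-kB and inflammatory genes 1 rose in ascites and none was called in thio. The interval for Il1b, a pyrogenic cytokine, ran from -0.83 to 1.67, for Tnf from -0.77 to 0.30 and for Cxcl10, an interferon-induced chemokine, from -3.58 to 0.71 on the log2 scale, wide enough to hold unequal responses. Of 31 p53 targets 2 rose in ascites and 3 in thio and 1 fell in thio, and Cdkn1a, the cell cycle inhibitor that p53 induces, had a difference of 0.075 (SE 0.19, 95% interval -0.33 to 0.48, edgeR adjusted p 0.945), and Mdm2, which degrades p53, one of -0.42 (SE 0.095, 95% interval -0.63 to -0.22, edgeR adjusted p 0.136). Lysosome and autophagy genes had 30 of 34 intervals inside the margin. A narrow interval falls inside more easily, and widths varied with level. The median width was 0.54 for genes called in thio alone with no called difference (median log2 CPM 5.88). It was 1.27 for genes called in no test (median log2 CPM 3.14). The part of level in the list counts was not tested.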

How the data were processed

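RNA from 48 libraries of mouse macrophages was sequenced with QuantSeq, per the labels' protocols, and 12 libraries in 4 groups of 3, assigned from the sample titles, are compared here. The deposited table holds raw counts per gene, as whole numbers; Bowtie2, RSEM and DESeq2 are named in the submitters' processing notes, while the genome build, annotation and versions are not stated in the sources used here. Every count column was mapped, and 0 were left over. Genes were filtered by group (filterByExpr), scaled by TMM and fitted with edgeR 4.0.16 (quasi-likelihood, robust, R 4.3.3) with 1 mean per group, and p-values were adjusted over 16955 genes by Benjamini-Hochberg. Intervals came from the same fit, whose biological coefficient of variation was 0.168. Counts of replicates differed beyond sampling noise in all 12 pairs, and the test was tried on simulated counts. There it called 10% of 50 genes changed 1.5-fold, 58% of 50 changed 2-fold and 86% of 50 changed 4-fold. It made 4 false calls among unchanged genes. A difference that was not called may therefore still be present. Alternatives used DESeq2 1.42.0 and limma 3.58.1. Members and gene lists were chosen with earlier results of these data known. Genes were named by rule: called genes (10 a direction by lowest p, then called list members and genes called in 1 population only, which named all 20) and 5 alike genes a direction by size. The rule also always named a fixed set of stress, inflammatory and other genes that an earlier account of these data names. Genes outside the rule are marked as chosen after their values were seen. Coordinates are those of GENCODE M21 on GRCm38, matched by gene ID, and 30-base stretches shared between transcripts came from the same annotation.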

Additional observations from a re-analysis of the deposited data

Results flagged for a closer look

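The response to AP-3-84 differed between ascites and thioglycollate macrophages, by the edgeR test of the difference itself, for the 20 genes. On the log2 scale the difference was positive, with a larger rise in ascites, for Hspa1l (3.57), Gm42826 (2.17), Ier5l (2.17), Tmem245 (1.82), Rn7sk (1.73), Hspa1a (1.69), Gadd45b (1.11), Hsph1 (0.68), Jun (0.63) and Hspd1 (0.42). It was positive, with a fall in thio, for Ccr2 (0.95), F13a1 (0.78) and Rapgef6 (0.60). A negative difference, with a larger rise in thio, was found for Vasn (-2.53), Mthfd2 (-1.50), Ifrd1 (-1.04), Slc7a1 (-0.92), Mmp13 (-0.85), Rgs1 (-0.78) and Mmp12 (-0.42). No group of 3 libraries was examined for single outlying values.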

How the results depend on the processing

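The counts of calls depended on the processing more than the directions did: the difference kept its sign for 20 of 20 called genes in each of 20 alternative fits, and each gene kept its call in 4 to 19 of them. The 20 called differences became 15 with median-ratio size factors and with limma-voom, 27 when scaled by total counts, 155 (89 positive) with no filter on low counts, 55 (38 positive, with all 20 among them) by DESeq2 and 2 in a fit of all 48 libraries, and 10 of the 20 had an absolute log2 difference of at least 1. Leaving out 1 library gave 7 to 26 calls: 12, 7 and 8 without ascites vehicle replicates 1, 2 and 3, 10 without ascites AP-3-84 replicate 2, 8, 9 and 8 without thio vehicle replicates 1, 2 and 3, and 9 and 10 without thio AP-3-84 replicates 1 and 2. The calls for 7 of the 20 held without each library in turn, and those for 13 were lost without at least 1, but all 7 were lost in the fit of 48 libraries (edgeR adjusted p from 0.0902 to 1), those for Rgs1, Gm42826 and Rn7sk also with a replicate block within each population (0.079, 0.079 and 0.303), and that for Rn7sk with a shared one (0.06). The 104 alike genes became 164 with no filter, 4 in the fit of 48 libraries, and 61 to 97 with 1 library left out, with 61 without ascites vehicle replicate 2 and 69 without ascites vehicle replicate 3 or thio vehicle replicate 1, and 130 were inside a 2-fold margin. The 3 genes called in ascites only became 30 with no filter, 10 by DESeq2, 0 in the fit of 48 libraries and 1 to 5 with 1 library left out. The 8 called in thio only became 14 when scaled by total counts, 68 with no filter, 26 by DESeq2, 1 in the fit of 48 libraries and 2 to 10 with 1 library left out. The deviations of same-numbered vehicle and AP-3-84 libraries had correlations of -0.526 to 0.166, with 2 of 6 above 0.1. Those of other pairs ran from -0.368 to 0.486. Deviations from a mean of 3 libraries depend on each other, so these values cannot show whether the replicate number pairs the libraries. With the number as a block within each population 5 differences were called, 52 genes were alike, 1 was called in ascites only and 2 in thio only, and with a shared replicate block these counts were 6, 76, 1 and 2. Among genes with no called difference, the sign turned for Txnrd1 and Ptgr1 when scaled by total counts, to -0.00673 and -0.00482, and with 1 library left out within these ranges: Cdkn1a (-0.13 to 0.17), Ddit3 (-0.23 to 0.011), Gclm (-0.073 to 0.013), Gdf15 (-0.0027 to 0.24), Hmox1 (-0.049 to 0.28), Hpgds (-0.0092 to 0.095), Il1b (-0.077 to 0.86), Ptgr1 (-0.056 to 0.14), Rny1 (-0.20 to 0.91), Slc36a1 (-0.069 to 0.029), Slfn4 (-0.058 to 0.13) and Txnrd1 (-0.084 to 0.083). Fewer genes and more libraries enter some fits, and otherwise the cause was not tested. Counts were lowest, under about 1 CPM, for Hspa1l with vehicle in ascites and for Vasn with vehicle in thio.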

Other observations

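Small nuclear, nucleolar and other short non-coding RNA genes were grouped after the values were seen. Of 161 tested, 28 rose in ascites, 13 in thio and 12 in both, against 1.69%, 2.51% and 1.1% of all genes tested. All 12 had a positive difference. Rn7sk alone among the 161 had a called difference, against 0.118% of all genes tested. The difference was positive for 104 of 161 (64.6%), with a median of 0.40, or 0.24 without ascites AP-3-84 replicate 1. The classes of this grouping were not alike, since 34 of 51 snRNA and 54 of 77 snoRNA genes had a positive difference but 11 of 26 misc_RNA genes, the class of Rn7sk, with a median of -0.53. Without ascites AP-3-84 replicate 1 the counts were 37 of 51, 50 of 77 and 11 of 26. The misc_RNA median was then -0.19. Other members raised in both were the vault RNA Vaultrc5, at a difference of 0.61 (edgeR adjusted p 0.732), and the Y RNAs Rny1 and Rny3, at 0.55 (edgeR adjusted p 0.844) and 0.38 (edgeR adjusted p 0.809). Several copies of U2 with identical counts, and Rn7s1 and Rn7s2, also with identical counts, were among the 12, so the genes are fewer than the count. Copies of U1 among the 28 raised in ascites, and copies of U3 among the snoRNA genes, also had identical counts. The counts and medians over the 161, the 51 snRNA and the 77 snoRNA genes therefore take some values more than once. The 3 snoRNA genes raised in ascites, Snord14c, Snord14d and Snord14e, overlap Hspa8 on its own strand. Whether their counts hold reads of Hspa8 was not tested. Short RNAs of these classes mostly lack natural poly(A) tails, and what their reads count was not tested. Long non-coding classes leaned the other way, with a positive difference for 28.5% of 743 lincRNA genes and 34.5% of 455 antisense genes, or 35.8% and 39.3% without ascites AP-3-84 replicate 1, the library with the fewest genes detected, against 54.7% of 13097 protein-coding genes (49.0% when scaled by total counts). Values near the threshold, chosen after they were seen, included Tfrc, the transferrin receptor, at 0.84 (SE 0.16, 95% interval 0.49 to 1.18, edgeR adjusted p 0.0752), Rtp4, an interferon-induced gene, at 0.60 (SE 0.11, 95% interval 0.36 to 0.84, edgeR adjusted p 0.0538), and Retnla, a marker of alternative activation, at 0.41 (SE 0.081, 95% interval 0.24 to 0.58, edgeR adjusted p 0.0737).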
